A study of Sus scrofa with 32 samples.

Results

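The genes described here encode proteins that the liver releases into blood plasma, or relatives of such proteins: apolipoproteins, serpins, the heavy chains of inter-alpha-trypsin inhibitor (ITIH), the fibrinogen chains FGB and FGG, and the carriers TTR, TF, AHSG, HPX and HP. Members were chosen by gene symbol. A symbol had to begin with APO, SERPIN or ITIH, or to be one of the named fibrinogen chains and carriers, and the probe set had to be annotated to that symbol alone. APOBEC symbols and SERPINH1 were left out, and each gene was represented by its brightest probe set. This gave 38 genes of the 6765 with a single-symbol probe set on the array. Of these, 35 lay above background, against 5594 of all such genes. APOD, SERPINB2 and SERPINB11 did not, with medians of 2.20 to 2.29 at each age. FGA and SERPINC1 were not analysed here.

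Liver RNA of Pietrain pigs was hybridised to 32 Affymetrix porcine expression arrays, 1 per sample. The samples were offspring of gilts on a methyl enriched or a control gestation diet, taken at 35, 63 or 91 days post conception (dpc). Each diet had 5 arrays at 35 dpc, 6 arrays at 63 dpc and 5 arrays at 91 dpc. Replicate numbers follow the order of the samples within a group and mark no pairing. The labels do not tie a sample to a gilt or give fetal sex, and whether RNA of several fetuses was pooled is not stated in the sources used here. The p-values therefore measure the spread between these samples, some of which may share a dam.

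The fetal liver is both the maturing source of plasma proteins and a site of blood formation. Apolipoproteins wrap and target lipid particles: APOB is the structural protein of very low and low density lipoproteins, and the smaller APOA, APOC and APOE proteins exchange between particles. Serpins are a fold family in which most members trap a protease irreversibly, although SERPINA6 and SERPINA7 carry hormones instead. ITIH heavy chains are linked to hyaluronan outside cells with the help of the light chain bikunin, encoded by AMBP. Fibrinogen is assembled from alpha, beta and gamma chains and is the precursor of the fibrin clot.

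Values were log2 signals as deposited, running from 2.20 to 16.6. The number of arrays per group limits the precision of the group means. A probe set counted as above background when it exceeded the array's 40th percentile (2.74 to 2.93) on at least 5 arrays, which kept 15327 of 23999. The arrays fell into 18 with a wide and 14 with a narrow gap between the spike-in controls bioC and bioB (1.39 to 1.83 against 0.16 to 0.39). Both kinds occurred in every age and diet. All 7 hepatocyte marker genes on the array were above background. So were all 6 erythroid, 6 neutrophil and 7 macrophage markers on the array, so passing the filter does not by itself check the tissue label. The mean level of the 7 hepatocyte markers per array was 9.73 to 10.49 at 35 dpc, 11.09 to 11.94 at 63 dpc and 12.19 to 12.67 at 91 dpc. The mean of 6 erythroid markers was 10.83 to 11.30, 10.29 to 10.78 and 8.01 to 9.28 at the same ages. In bulk tissue, a larger share of hepatocytes and more RNA per hepatocyte cannot be told apart.

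Between 35 and 63 dpc the plasma protein genes changed mostly upwards. With limma, 19 of the 35 were higher and 7 lower at 63 dpc at an adjusted p under 0.05. Over all 15327 probe sets, 32.5% were called higher and 28% lower. The median log2 difference was 0.21 for the 35 members and 0.05 for all probe sets. From 63 to 91 dpc, 13 members were higher and 9 lower, with backgrounds of 29.5% and 29%. The median difference was 0.11 for the members and -0.03 for all probe sets. The shares called over all probe sets are also the background for the counts of rises and falls in gene groups and lists below. All 26 called changes of the first interval and all 22 of the second had the same sign in both spike-in groups and in both diets. These groups are parts of the arrays that gave the calls, so their agreement is no separate test. With the spike-in group as a block, 19 were higher and 7 lower in the first interval, and 16 higher and 9 lower in the second.

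In the first interval, 9 members had every 63 dpc array above every 35 dpc array, where 3.61% of all probe sets did. They were APOC3, APOF, APOH, SERPINA5, SERPINA7, ITIH2, ITIH3, FGB and FGG. The reverse held for SERPINA3-2 and SERPINA6, against 4.99% of all probe sets. In the second interval, APOB, APOH, SERPINA7, ITIH3, FGB and FGG had every 91 dpc array above every 63 dpc array (background 6.11%). APOO, SERPINA1 and SERPINA6 had every 91 dpc array below (background 6.94%).

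The 35 members took 9 different courses over the 2 intervals. APOB, APOC3, APOE, APOH, FGB, FGG, ITIH3 and SERPINA7 rose in both, and APOO and SERPINA6 fell in both. The second rise of APOE lost its call in the mean with its other probe set, which was not above background. APOA1, APOF, ITIH1, ITIH2, SERPINA5, SERPINF1 and SERPINI1 rose in the first and had no call in the second. APOA4, ITIH4, SERPINB1 and SERPING1 rose and then fell, whereas APOC2, HP and HPX fell and then rose. The falls of APOA4, ITIH4 and SERPING1 lost their calls in either spike-in group alone, where there were fewer arrays. AHSG, SERPINA1 and TF had a call only as a fall in the second interval, and SERPIND1 only as a rise there. With the mean of all probe sets SERPIND1 lost that call, and ITIH1 gained a rise in the second interval. SERPINB7 was also called there, but it passed the background filter only through its 91 dpc arrays. ITIH5 and SERPINA3-2 fell in the first interval alone by these calls. APOA2, APOM, SERPINE2 and TTR were called in neither.

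**Figure D1:**
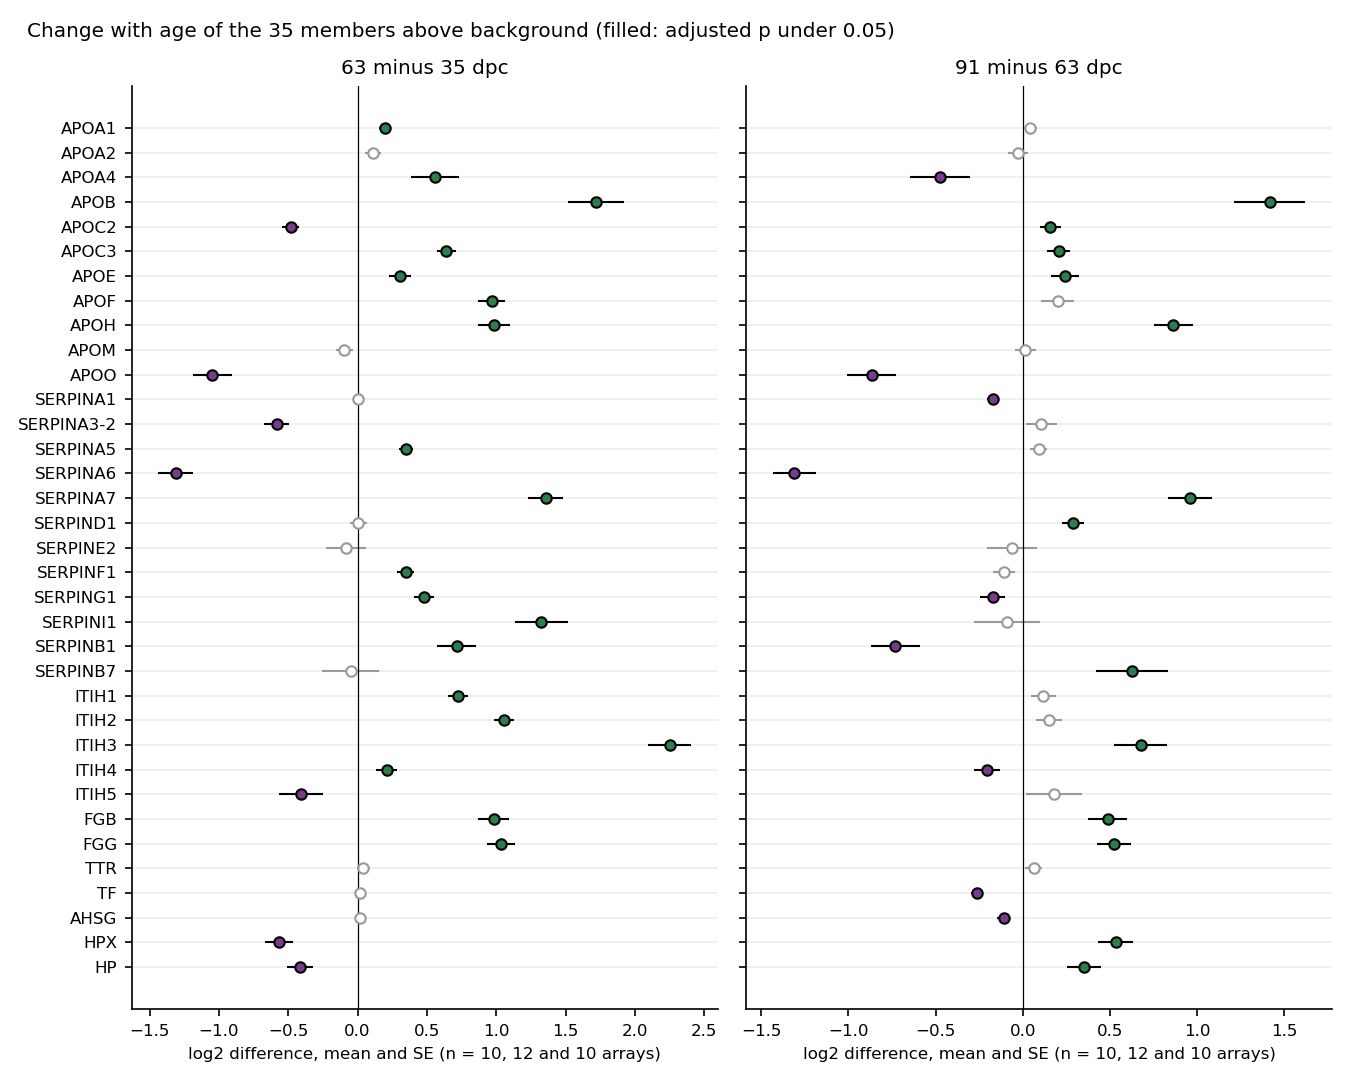
Difference in log2 signal between ages for the 35 members above background, 63 minus 35 dpc and 91 minus 63 dpc, averaged over the diets, with standard error bars; filled points passed an adjusted p of 0.05 in limma (green higher, purple lower) and open points did not. ITIH3 at 2.25 is the farthest to the right in the first interval and APOB at 1.42 in the second, while SERPINA6 lies farthest to the left in both, at -1.31 each time.

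The erythroid markers moved with these ages. In the first interval 1 of the 6 was higher and 5 lower, and in the second again 1 was higher and 5 lower. With their mean per array as a covariate, 17 members were called higher and 6 lower in the first interval, along with 3861 and 3091 of all 15327 probe sets. In the second interval 1 member was called higher and 0 lower with that covariate, along with 156 and 59 of all probe sets, against 4523 and 4440 without it. That member was HPX, at 1.21. The erythroid ranges of neighbouring ages overlapped in neither interval. Among the 6, HBE1, a globin gene, fell by 4.08 in the second interval, and EPOR, KLF1 and ALAS2 by 2.38, 2.23 and 1.78. The mean of the 6 follows the level of single genes as well as the erythroid share, and these cannot be told apart here. How much of the second interval's changes goes with the erythroid share was not tested further.

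Among the apolipoproteins of secreted lipoproteins, 7 of the 10 tested rose and 1 fell in the first interval, with a median of 0.43. In the second, 5 rose and 1 fell, with a median of 0.18. APOB changed most in both. Its lowest, median and highest signals were 11.28, 11.94 and 12.83 at 35 dpc, 12.33, 13.86 and 14.61 at 63 dpc, then 14.95, 15.15 and 15.36 at 91 dpc. Only 1 array at 63 dpc reached down among the 35 dpc arrays, and all 91 dpc arrays stood above the rest. APOB was 3.29-fold higher at 63 than at 35 dpc (log2 difference 1.72 ± 0.20, SE, adjusted p = 4.46e-08). It was a further 2.67-fold higher at 91 than at 63 dpc (1.42 ± 0.20, adjusted p = 8.43e-07). Between 91 and 35 dpc the means differed by 3.14 log2 units, or 8.79-fold.

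APOB was spread widely at 63 dpc. Its SD was 0.65 at 63 dpc, against 0.50 at 35 dpc and 0.12 at 91 dpc. The 6 methyl arrays at 63 dpc read 14.14, 14.24, 13.29, 13.85, 13.92 and 13.60, and the 6 control arrays 13.64, 12.33, 13.88, 12.92, 14.61 and 14.47. The control arrays thus held both the lowest and the highest values of that age.

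APOH, beta-2-glycoprotein I, which binds phospholipids, had 12.32, 12.95 and 13.22 as its lowest, median and highest signals at 35 dpc. At 63 dpc they were 13.46, 13.87 and 14.16, and at 91 dpc 14.19, 14.66 and 15.07. The 3 ages did not overlap at all. The steps were 0.98 ± 0.11 (adjusted p = 2.32e-08) and 0.86 ± 0.11 (adjusted p = 1.58e-07), or 1.98-fold and 1.82-fold. APOF, known in humans as an inhibitor of cholesteryl ester transfer, made most of its change in the first interval. Its signals were 10.67, 11.12 and 11.51 at 35 dpc, 11.80, 12.08 and 12.36 at 63 dpc, then 11.82, 12.33 and 12.56 at 91 dpc. It rose 1.95-fold by 63 dpc (0.97 ± 0.10, adjusted p = 1.83e-09), and the second step of 0.20 ± 0.10 did not pass (adjusted p = 0.0707). It did pass with the spike-in group as a block, at 0.21 (adjusted p = 0.0497), and without any 1 of 4 arrays, at 0.20 to 0.25 (adjusted p 0.0192 to 0.0493).

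The C apolipoproteins went opposite ways in the first interval. APOC3, which slows the breakdown of triglyceride-rich particles, had 14.29, 14.84 and 15.10 at 35 dpc, 15.23, 15.46 and 15.67 at 63 dpc, then 15.40, 15.69 and 15.77 at 91 dpc. All of its 63 dpc arrays were above all 35 dpc arrays, a rise of 0.64 ± 0.07 (adjusted p = 3.83e-09). The later ages overlapped, and the second rise was 0.21 ± 0.07 (adjusted p = 0.00809). APOC2, which activates lipoprotein lipase, had 14.72, 14.996 and 15.23 at 35 dpc, 14.38, 14.52 and 14.79 at 63 dpc, then 14.47, 14.68 and 14.90 at 91 dpc. It fell by 0.48 (SE 0.06, adjusted p = 8.70e-08) and then rose by 0.16 ± 0.06 (adjusted p = 0.0239). Without control 91 dpc replicate 3 or methyl 91 dpc replicate 3 the second step had adjusted p = 0.0530 and 0.0652. It was 0.23 in the wide-gap arrays and 0.036 in the narrow-gap arrays alone (adjusted p = 0.745 in the narrow-gap arrays).

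APOE, the ligand by which remnant particles are taken up, rose in smaller steps of 0.31 ± 0.08 (adjusted p = 0.00174) and 0.24 ± 0.08 (adjusted p = 0.0111). Its medians were 13.38, 13.55 and 13.87 at 35, 63 and 91 dpc, and neighbouring ages overlapped. A second APOE probe set was not above background, and with the mean of both the second step was 0.039 (adjusted p = 0.652). The means of that probe set were 2.32, 2.43 and 2.27, so the mean of both cannot decide on the step. APOA1, the main protein of high density lipoprotein, had medians of 15.98, 16.14 and 16.23. Only its first step of 0.20 ± 0.04 passed (adjusted p = 1.37e-04), and the second was 0.04 (adjusted p = 0.396). APOA2, also of high density lipoprotein, had medians of 14.71, 14.84 and 14.83, and APOM, a carrier of sphingosine 1-phosphate, 13.34, 13.23 and 13.23. Their differences in the first interval were 0.11 (adjusted p = 0.0918) and -0.10 (adjusted p = 0.169). APOA2 was called at 0.13 without control 63 dpc replicate 2 (adjusted p = 0.0420) or methyl 63 dpc replicate 1 (adjusted p = 0.0477), and APOM at -0.14 without methyl 35 dpc replicate 5 (adjusted p = 0.0324). APOA4 was close to background, with medians of 3.07, 3.33 and 3.15. It had a rise of 0.56 ± 0.17 (adjusted p = 0.00647) and a fall of 0.47 (SE 0.17, adjusted p = 0.0196). The rise lost its call in the narrow-gap arrays alone, at 0.52. The fall lost its call in the wide-gap arrays alone, at -0.39, and in the narrow-gap arrays alone, at -0.56. The APOA4 median was 3.15 both in the control arrays at 63 dpc and at 91 dpc.

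APOO carries the family name but is known chiefly as a protein of the mitochondrial inner membrane. Its signals were 7.81, 8.22 and 8.46 at 35 dpc, 6.74, 7.10 and 7.97 at 63 dpc, then 5.67, 6.45 and 6.72 at 91 dpc. Every 91 dpc array was below every 63 dpc array. It fell by 1.05 (SE 0.14, adjusted p = 2.57e-07) and then by 0.87 (SE 0.14, adjusted p = 4.22e-06), opposite to APOB at each step.

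**Figure D2:**
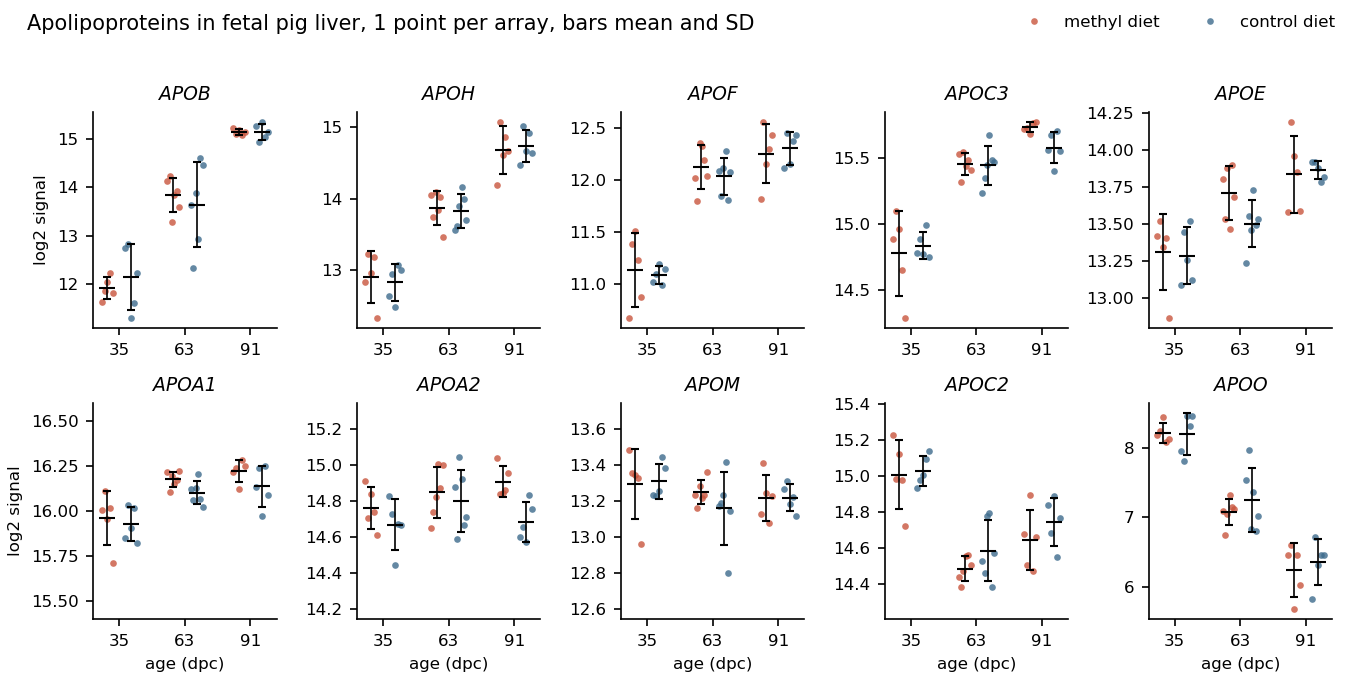
Log2 signal of apolipoprotein genes on each array at 35, 63 and 91 dpc, methyl and control side by side, with bars for the mean and SD of each group. APOB and APOH climb over the 3 ages, APOC2 dips at 63 dpc to a median of 14.52, APOO declines to a median of 6.45 at 91 dpc, and the diets overlap at each age except for APOA2 at 91 dpc.

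Of 21 genes listed for lipoprotein assembly and clearance, 11 were tested. There 7 rose and 4 fell in the first interval and 7 rose and 1 fell in the second, with medians of 0.27 and 0.29. MTTP, which loads lipid onto APOB, rose by 1.06 ± 0.15 (adjusted p = 4.33e-07) and 0.55 ± 0.15 (adjusted p = 0.00179). PDZK1, a scaffold for the HDL receptor, rose by 3.41 and 1.13. ABCA1, which hands cholesterol to APOA1, rose by 1.77 at 91 over 63 dpc, and LCAT, which esterifies that cholesterol, by 0.44. ANGPTL4, an inhibitor of lipoprotein lipase, fell by 1.97 and LRPAP1, a receptor chaperone, by 0.80 in the first interval.

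Calls of the secreted serpins went both ways. In the first interval 5 of 10 rose and 2 fell (median 0.18), where 32.5% and 28% of all probe sets did. In the second 2 rose and 3 fell (median -0.08), near the 29.5% and 29% of all probe sets. The hormone carriers SERPINA6 and SERPINA7 changed in opposite directions in both intervals. SERPINA6, the corticosteroid-binding globulin that carries cortisol, had lowest, median and highest signals of 12.89, 13.48 and 13.58 at 35 dpc. At 63 dpc they were 11.68, 12.04 and 12.44, and at 91 dpc 10.02, 10.80 and 11.44. The ages formed 3 separate bands, each lower than the one before. Both steps were -1.31 ± 0.13 (adjusted p = 1.10e-09 and 5.29e-10), or 2.48-fold lower each time. Over both intervals the mean was 6.15-fold lower at 91 than at 35 dpc.

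SERPINA7, the thyroxine-binding globulin, had 9.64, 10.68 and 10.95 at 35 dpc, 11.39, 11.92 and 12.37 at 63 dpc, then 12.68, 12.82 and 13.38 at 91 dpc. Its ages were also 3 separate bands, in rising order. The steps were 1.36 ± 0.13 (adjusted p = 6.11e-10) and 0.96 ± 0.13 (adjusted p = 1.67e-07), or 2.56-fold and 1.94-fold, and 4.97-fold from end to end. Transthyretin (TTR), also a thyroid hormone carrier among the members, had medians of 15.41, 15.51 and 15.59. Its steps were 0.04 (adjusted p = 0.442) and 0.06 (adjusted p = 0.260). With the spike-in group as a block the second step of TTR had adjusted p = 0.0213.

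The protease inhibitors of the group moved less than the hormone carriers, apart from SERPINI1. SERPINI1, or neuroserpin, an inhibitor of tissue plasminogen activator best known from the brain, had 5.71, 6.21 and 7.21 at 35 dpc, 6.82, 7.84 and 8.21 at 63 dpc, then 6.85, 7.55 and 8.52 at 91 dpc. Neighbouring ages overlapped. It rose 2.51-fold by 63 dpc (1.33 ± 0.19, adjusted p = 7.07e-07) and the second difference was -0.09 (adjusted p = 0.697). SERPING1, the inhibitor of complement C1 and plasma kallikrein, had medians of 13.15, 13.63 and 13.45. It rose by 0.48 ± 0.07 (adjusted p = 1.73e-06) and fell by 0.17 (SE 0.07, adjusted p = 0.0390). That fall no longer passed when any 1 of 10 arrays was left out, with adjusted p of 0.0535 to 0.0746.

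SERPINA5, protein C inhibitor, rose by 0.35 ± 0.05 in the first interval (adjusted p = 6.20e-07), and its medians were 13.99, 14.31 and 14.38. SERPINF1, pigment epithelium-derived factor, which has the serpin fold without inhibiting a protease, rose by 0.35 ± 0.06 (adjusted p = 2.70e-05), with medians of 13.87, 14.16 and 14.00. SERPINA3-2, a porcine relative of antichymotrypsin, went the other way. It had 13.96, 14.21 and 14.67 at 35 dpc, 13.38, 13.77 and 13.92 at 63 dpc, then 13.63, 13.81 and 14.19 at 91 dpc. Every 63 dpc array was below every 35 dpc array. It fell by 0.58 (SE 0.09, adjusted p = 1.86e-06), and the later difference was 0.11 (adjusted p = 0.305). SERPINA3 genes form a family of close copies in the pig, so its probe set may read more than 1 of them.

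SERPIND1, heparin cofactor II, which inhibits thrombin, differed only in the second interval by these calls. Its medians were 13.01, 12.99 and 13.27, a rise of 0.29 ± 0.06 (adjusted p = 2.23e-04). Its second probe set gave -0.32 ± 0.20 and was not called, and the mean of both gave -0.019. SERPINA1, alpha-1-antitrypsin, had medians of 16.33, 16.31 and 16.17 and fell by 0.17 (SE 0.03, adjusted p = 2.23e-05) in the second interval, with no overlap. SERPINE2, protease nexin 1, had medians of 5.61, 5.60 and 5.45 and no call.

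Clade B serpins act mainly inside cells. SERPINB1, which inhibits neutrophil elastase and cathepsin G, had 7.88, 8.84 and 9.23 at 35 dpc, 9.08, 9.46 and 9.84 at 63 dpc, then 8.28, 8.86 and 9.14 at 91 dpc. It peaked at 63 dpc, with steps of 0.71 ± 0.14 (adjusted p = 7.76e-05) and -0.73 ± 0.14 (adjusted p = 5.78e-05). Neutrophil and granulocyte markers moved with it: all 6 tested were higher in the first interval and all 6 lower in the second. Their mean level was 7.30 to 8.50 at 35 dpc, 8.33 to 9.56 at 63 dpc and 6.70 to 7.99 at 91 dpc. Their part in the SERPINB1 result was not tested. SERPINB7 exceeded background on 2 arrays at 35 dpc, 1 at 63 dpc and 5 at 91 dpc, with medians of 2.59, 2.59 and 3.15. It was tested only because of the 91 dpc arrays, so its call in the second interval is no result about it, although it is one of the 13.

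Of 20 listed proteases that serpins hold in check, 10 were tested. Of these 9 rose and 1 fell in the first interval, with a median of 1.005, and in the second 4 rose and 2 fell, with a median of 0.13. KLKB1, plasma prekallikrein, a target of SERPING1, rose by 4.03 ± 0.24 (adjusted p = 3.85e-13) and 1.86 ± 0.24 (adjusted p = 1.62e-07). C1S, the complement protease bound by SERPING1, rose by 2.07 in the first interval, and F9 and F12, coagulation factors, by 1.28 and 1.01. ELANE and PRTN3, the granule proteases of neutrophils, fell by 2.15 and 2.14 in the second interval.

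The heavy chains of inter-alpha-trypsin inhibitor rose in the first interval in 4 of 5 cases, and the fifth, ITIH5, fell. ITIH3 had the largest first-interval difference of all 35 members. Its lowest, median and highest signals were 10.26, 11.22 and 12.11 at 35 dpc, 13.19, 13.49 and 13.88 at 63 dpc, then 13.89, 14.15 and 14.45 at 91 dpc. More than 1 log2 unit separated the highest 35 dpc array from the lowest 63 dpc array, and the later ages just failed to touch. It rose 4.76-fold (2.25 ± 0.15, adjusted p = 2.80e-12) and then 1.60-fold (0.67 ± 0.15, adjusted p = 3.99e-04). Its other probe sets gave 2.51 and 2.99 for the first interval, both called, and 0.50 and 0.27 for the second, neither called.

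ITIH2 had 13.12, 13.46 and 13.88 at 35 dpc, 14.24, 14.54 and 14.69 at 63 dpc, then 14.54, 14.68 and 14.75 at 91 dpc. It rose 2.08-fold in the first interval without overlap (1.06 ± 0.07, adjusted p = 4.63e-12), and the second step was 0.15 ± 0.07 (adjusted p = 0.0855). With the spike-in group as a block the second step of ITIH2 had adjusted p = 0.0370. ITIH1 had medians of 14.17, 14.97 and 15.03 and rose by 0.72 ± 0.07 (adjusted p = 2.33e-09). A second, dimmer ITIH1 probe set gave 1.32 and 0.53, both called, where the brighter one gave 0.72 and 0.12.

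ITIH4, the heavy chain that has no hyaluronan link and is an acute-phase protein in pigs, had medians of 14.06, 14.24 and 14.06. It rose by 0.21 ± 0.07 (adjusted p = 0.0164) and fell by 0.21 (SE 0.07, adjusted p = 0.0174). Without methyl 35 dpc replicates 1 and 5 the rise was 0.14 (adjusted p = 0.110), and in the narrow-gap arrays alone 0.085 (adjusted p = 0.495). The fall lost its call in the wide-gap arrays alone, at -0.15, and in the narrow-gap arrays alone, at -0.25. ITIH5, known mainly from tissues other than liver, was dim, with medians of 4.69, 4.19 and 4.19. Its fall of 0.41 (SE 0.16, adjusted p = 0.0259) lost its call without any 1 of 3 arrays: -0.32 (adjusted p = 0.0741) without control 35 dpc replicate 4, -0.34 (adjusted p = 0.0553) without control 63 dpc replicate 6, and -0.36 (adjusted p = 0.0506) without methyl 63 dpc replicate 2.

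Of 12 genes listed for hyaluronan and the ITIH partners, 4 were tested. The first interval had 3 that rose, and the second 1 that fell. AMBP, the source of the light chain, had 14.09, 14.54 and 14.77 at 35 dpc, 14.86, 14.95 and 15.08 at 63 dpc, then 14.68, 14.90 and 15.13 at 91 dpc. It rose by 0.48 ± 0.07 (adjusted p = 4.06e-07), with no overlap between 63 and 35 dpc, and its second step was -0.04 (adjusted p = 0.612). HYAL2, a hyaluronidase, fell by 0.64 (SE 0.18, adjusted p = 0.00257) in the second interval.

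Both fibrinogen chains measured rose in both intervals, by nearly equal steps. FGB had lowest, median and highest signals of 12.80, 13.55 and 14.16 at 35 dpc, 14.33, 14.49 and 14.69 at 63 dpc, then 14.84, 14.99 and 15.08 at 91 dpc. FGG had 12.37, 13.10 and 13.50, then 13.76, 14.05 and 14.27, then 14.39, 14.54 and 14.66. For each chain the ages formed 3 separate bands. FGB rose by 0.98 ± 0.11 (adjusted p = 1.73e-08) and 0.49 ± 0.11 (adjusted p = 3.84e-04). FGG rose by 1.03 ± 0.10 (adjusted p = 1.11e-09) and 0.52 ± 0.10 (adjusted p = 4.20e-05). The means were 2.77-fold (FGB) and 2.94-fold (FGG) higher at 91 than at 35 dpc. A dimmer FGG probe set gave 0.51 and 0.21.

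**Figure D3:**
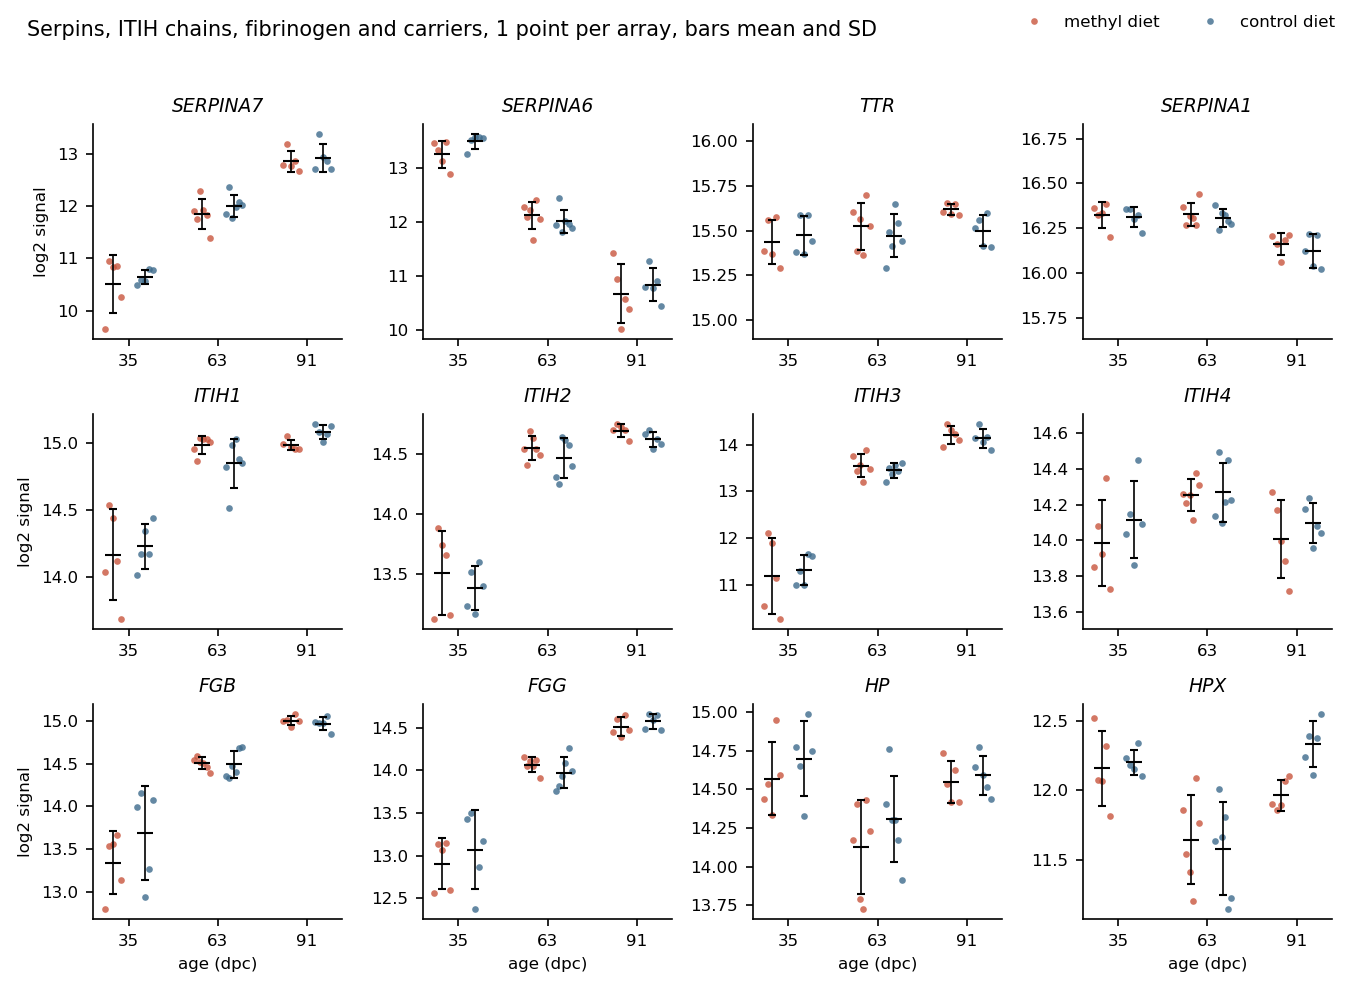
Log2 signal of serpin, ITIH, fibrinogen and carrier genes on each array at 35, 63 and 91 dpc, methyl and control side by side, with bars for the mean and SD of each group. SERPINA6 steps down and SERPINA7 steps up at each age, ITIH3 rises mainly by 63 dpc (median 13.49 against 11.22), and HPX is lowest at 63 dpc.

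Of 15 genes listed for fibrin formation and removal, 7 were tested. In the first interval 5 rose and 1 fell (median 0.42), and in the second 3 rose and 1 fell (median 0.16). F5, coagulation factor V, rose by 2.12 and 0.88, and PROS1, the anticoagulant protein S, by 1.56 and 1.05. PLG, the precursor of the clot-dissolving protease plasmin, rose by 0.32 in the first interval. VWF, which is made by endothelium and megakaryocytes, fell by 1.76 in the second, where all 4 megakaryocyte markers tested, VWF among them, were lower.

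Among the carriers and scavengers, none of 5 rose and 2 fell in the first interval (median 0.02), and 2 rose and 2 fell in the second (median 0.06). HPX, hemopexin, which binds free heme, had 11.82, 12.17 and 12.52 at 35 dpc, 11.15, 11.65 and 12.09 at 63 dpc, then 11.86, 12.11 and 12.55 at 91 dpc. HP, haptoglobin, which binds free hemoglobin, had 14.32, 14.62 and 14.99, then 13.72, 14.26 and 14.76, then 14.42, 14.56 and 14.77. Both were lowest at 63 dpc, with overlap between the ages. HPX fell by 0.56 (SE 0.10, adjusted p = 2.26e-05) and rose by 0.53 ± 0.10 (adjusted p = 4.86e-05). HP fell by 0.42 (SE 0.10, adjusted p = 4.49e-04) and rose by 0.35 ± 0.10 (adjusted p = 0.00235).

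TF, transferrin, the iron carrier, had medians of 15.82, 15.83 and 15.59 and fell by 0.26 (SE 0.03, adjusted p = 2.06e-07) in the second interval. The symbol TF also stands for a second pig gene, with the synonym PICA, whose probe set gave 0.16 (adjusted p = 0.0533) and -0.65 (adjusted p = 5.15e-09). AHSG, the fetal plasma protein fetuin-A, had medians of 15.69, 15.68 and 15.60 and fell by 0.11 (SE 0.04, adjusted p = 0.00968). That fall was -0.043 in the narrow-gap arrays alone (adjusted p = 0.335), and without the intensity trend it had adjusted p = 0.0856. TF, AHSG, TTR, APOA1 and SERPINA1 averaged within 1 log2 unit of the highest signal of an array (16.2 to 16.6). None of these 5 differed by more than 0.20 in the first interval or 0.26 in the second. Whether the array's upper limit compressed them was not tested.

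Of 16 genes listed for iron, heme and hemoglobin handling, 8 were tested. In the first interval none rose and 4 fell (median -0.28), and in the second 1 rose and 5 fell (median -0.46). HMOX1, which opens the heme ring, fell by 1.22 and BLVRA, which makes bilirubin, by 1.23 in the first interval. CD163, the macrophage receptor for the haptoglobin and hemoglobin complex, rose by 1.63 ± 0.12 in the second interval (adjusted p = 3.92e-12). The 7 macrophage markers tested, CD163 among them, had 4 higher and 1 lower there, and their mean level was 8.32 to 8.92 at 91 dpc, against 7.48 to 8.07 at 63 dpc.

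Other secreted hepatocyte proteins gave a yardstick. Of 14 tested, 12 rose and none fell in the first interval (median 0.59), and 8 rose and 1 fell in the second (median 0.27). ALB, albumin, rose by 3.37 ± 0.19 in the first interval (adjusted p = 7.79e-14), with medians of 11.48, 14.77 and 15.35. Of 17 genes of the secretory pathway, 7 rose and 3 fell in the first interval, and 9 rose and 6 fell in the second. HSPA5, the main chaperone of the endoplasmic reticulum, rose by 0.75 in the first, and HSP90B1, an HSP90 chaperone, by 1.83 in the second. SSR4 and CALR fell in the second, with differences of -0.51 and -0.82. Of 11 liver transcription factors, 6 rose and 2 fell, then 7 rose and 2 fell. NR5A2, a nuclear receptor of lipid and bile acid genes, rose by 1.80 and 1.36. KLF9, a target of glucocorticoid and thyroid hormone receptors, had 6.04, 7.28 and 7.78 as its lowest, median and highest signals at 91 dpc. At 35 and 63 dpc it was not above background on any array (at most 2.55 and 2.67). KLF9 was tested only because of the 91 dpc arrays. Its call in the second interval is therefore no result about it, although it is one of the 7.

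Several members are neighbours in the pig genome (RefSeq annotation, used for gene order alone). ITIH1, ITIH3 and ITIH4 follow one another with no coding gene between them, and all 3 rose in the first interval, by 0.72, 2.25 and 0.21. In the second interval their differences were 0.12, 0.67 and -0.21. ITIH2 and ITIH5 are also adjacent, and ITIH2 rose by 1.06 where ITIH5 fell by 0.41. APOA4, APOC3 and APOA1 are adjacent and rose by 0.56, 0.64 and 0.20. APOE and APOC2 are separated by 1 coding gene, and APOE rose by 0.31 where APOC2 fell by 0.48. SERPINA6 and SERPINA1 are also separated by 1 coding gene, and their first differences were -1.31 and 0.00. FGG and FGB lie on either side of FGA.

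The spread between arrays of an age was set beside that of all probe sets, with no test run on it. The SD was largest at 35 dpc in 19 of the 35 members, against 44.7% of all probe sets. The median SD of the members was 0.23, 0.18 and 0.15 at 35, 63 and 91 dpc, and that of all probe sets 0.35, 0.29 and 0.31. Of the 19 members that rose in the first interval, 9 had their lowest 35 dpc value in methyl replicate 5, 6 in methyl replicate 1, 3 in control replicate 3 and 1 in control replicate 1. All 4 of these were wide-gap arrays, of which 35 dpc had 3 control and 3 methyl arrays. The highest value was in methyl replicate 2 for 9 of the 19. These 19 were picked by their calls in the same arrays. How often each array held the lowest or highest value over all probe sets was not counted. The mean of the 19 genes per array was 11.7 to 12.3 at 35 dpc, 12.7 to 13.1 at 63 dpc and 13.03 to 13.29 at 91 dpc.

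The members did not all rank the 35 dpc arrays alike. APOB read 11.62, 11.85, 12.03, 12.22 and 11.80 in the methyl arrays and 12.75, 12.83, 11.28, 11.60 and 12.22 in the control arrays. SERPINI1 read 6.13, 6.13, 6.42, 6.28 and 6.12 in the methyl arrays and 7.16, 7.09, 5.71, 5.98 and 7.21 in the control arrays. For both genes control replicates 1, 2 and 5 were at or near the top and control replicates 3 and 4 at the bottom. ITIH3 read 10.53, 12.11, 11.89, 11.14 and 10.26 in the methyl arrays and 10.999, 11.30, 10.99, 11.66 and 11.61 in the control arrays, with its extremes in the methyl arrays. With methyl replicates 1 and 5 left out, a choice made after seeing the data, 18 members were called higher in the first interval.

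**Figure D4:**
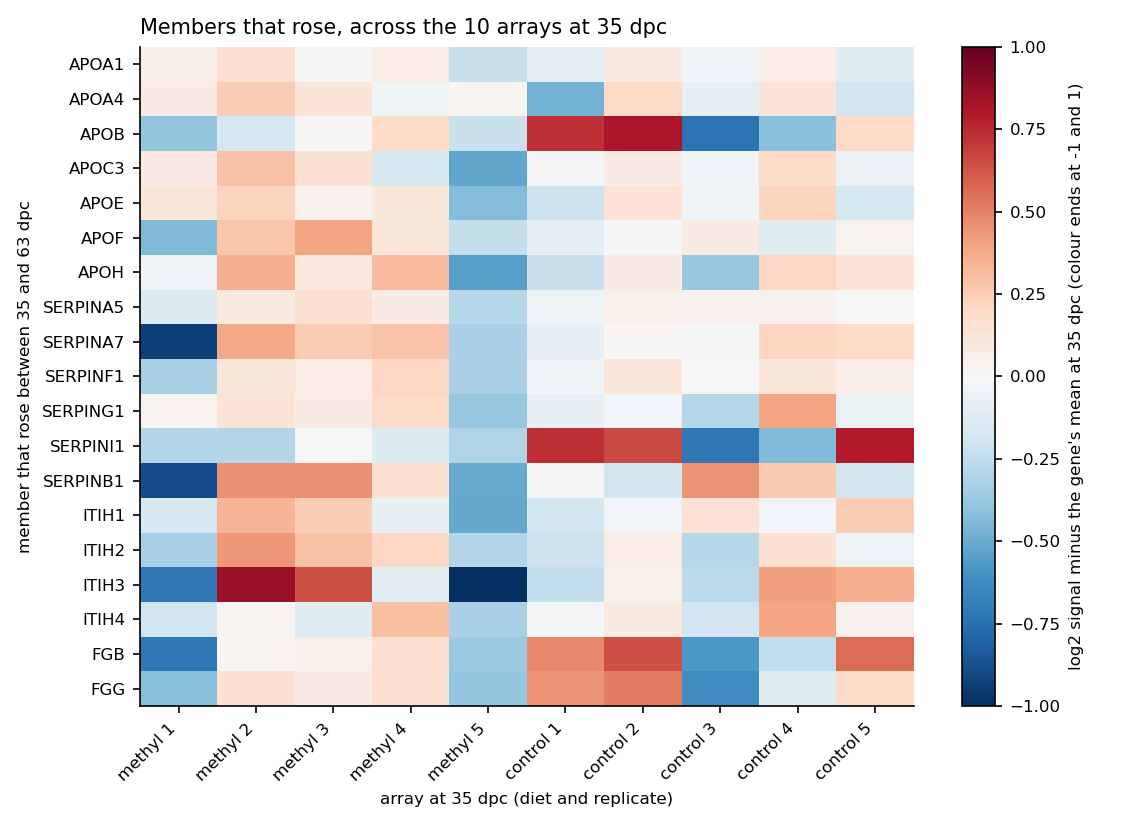
Deviation of each of the 10 arrays at 35 dpc from the mean of that age, in log2 units, for the 19 members that rose by 63 dpc. Deviations run from -0.99 to 0.86; methyl replicates 1 and 5 are low for many genes, and APOB, SERPINI1, FGB and FGG are high in control replicates 1, 2 and 5.

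The gestation diet left no member with an adjusted p under 0.05 in any of the 5 diet tests. The calls over all probe sets were also few: 0.0391% at 35 dpc, 0% at 63 dpc, 0.0718% at 91 dpc, 0% for the average over ages and 0% for the difference of the diet effect between ages. At an unadjusted p under 0.05, limma gave 2 members at 35 dpc, 0 at 63 dpc, 4 at 91 dpc, 2 for the average and 0 for the difference between ages. The same counts over all probe sets were 933, 219, 1000, 685 and 660. The methyl minus control differences of the 35 members ran from -0.41 to 0.27 at 35 dpc, from -0.20 to 0.41 at 63 dpc and from -0.50 to 0.45 at 91 dpc. At those ages 32, 33 and 31 of the 35 were within 0.25. The median half-width of the 95% interval was 0.27, 0.24 and 0.27, with a range over the members of 0.094 to 0.62 at 35 and 91 dpc and 0.086 to 0.57 at 63 dpc. These intervals are not adjusted for the number of members.

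At 91 dpc, APOA2 and HPX had diets that did not overlap, where 0.744% of all probe sets did not. No member had that at 35 dpc (0.313% of all probe sets) or 63 dpc (0.0848%). APOA2 read 15.04, 14.84, 14.84, 14.86 and 14.95 in the methyl arrays and 14.60, 14.65, 14.57, 14.83 and 14.75 in the control arrays. The difference was 0.22 ± 0.08 (95% interval 0.05 to 0.40, adjusted p = 0.526). HPX read 11.90, 11.86, 11.90, 12.07 and 12.10 in the methyl arrays and 12.24, 12.39, 12.11, 12.37 and 12.55 in the control arrays. Its difference was -0.36 ± 0.15 (95% interval -0.67 to -0.06, adjusted p = 0.608). Within the wide-gap and narrow-gap arrays it was -0.33 and -0.41, and that of APOA2 was 0.30 and 0.11. TF differed by 0.12 ± 0.05 (adjusted p = 0.666). None of these passed the test over all probe sets.

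At 35 dpc the smallest p-values belonged to SERPIND1, FGB and SERPINI1. SERPIND1 read 13.03, 13.04, 13.11, 13.11 and 13.003 in the methyl arrays and 12.79, 12.86, 12.75, 13.09 and 12.83 in the control arrays, a difference of 0.19 ± 0.09 (adjusted p = 0.803). Only control replicate 4 reached the methyl values. FGB read 12.80, 13.54, 13.57, 13.67 and 13.14 in the methyl arrays and 14.00, 14.16, 12.94, 13.27 and 14.07 in the control arrays, a difference of -0.34 ± 0.16 (adjusted p = 0.804). Control replicates 1, 2 and 5 were above every methyl array and the other control arrays lay among them. SERPINI1 differed by -0.41 ± 0.28 (adjusted p = 0.909).

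At 63 dpc the smallest p-values belonged to APOE, APOA4 and SERPIND1, with differences of 0.21, 0.41 and 0.14, each at adjusted p = 1. Averaged over ages, SERPIND1 differed by 0.15 ± 0.05 (95% interval 0.04 to 0.25, adjusted p = 0.999), APOA2 by 0.12 and APOA1 by 0.07. For the difference between ages, SERPINA5, HPX and FGB had unadjusted p of 0.0620, 0.114 and 0.191 in limma, all with adjusted p = 1. No gene of the listed pathways was called for diet.

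**Figure D5:**
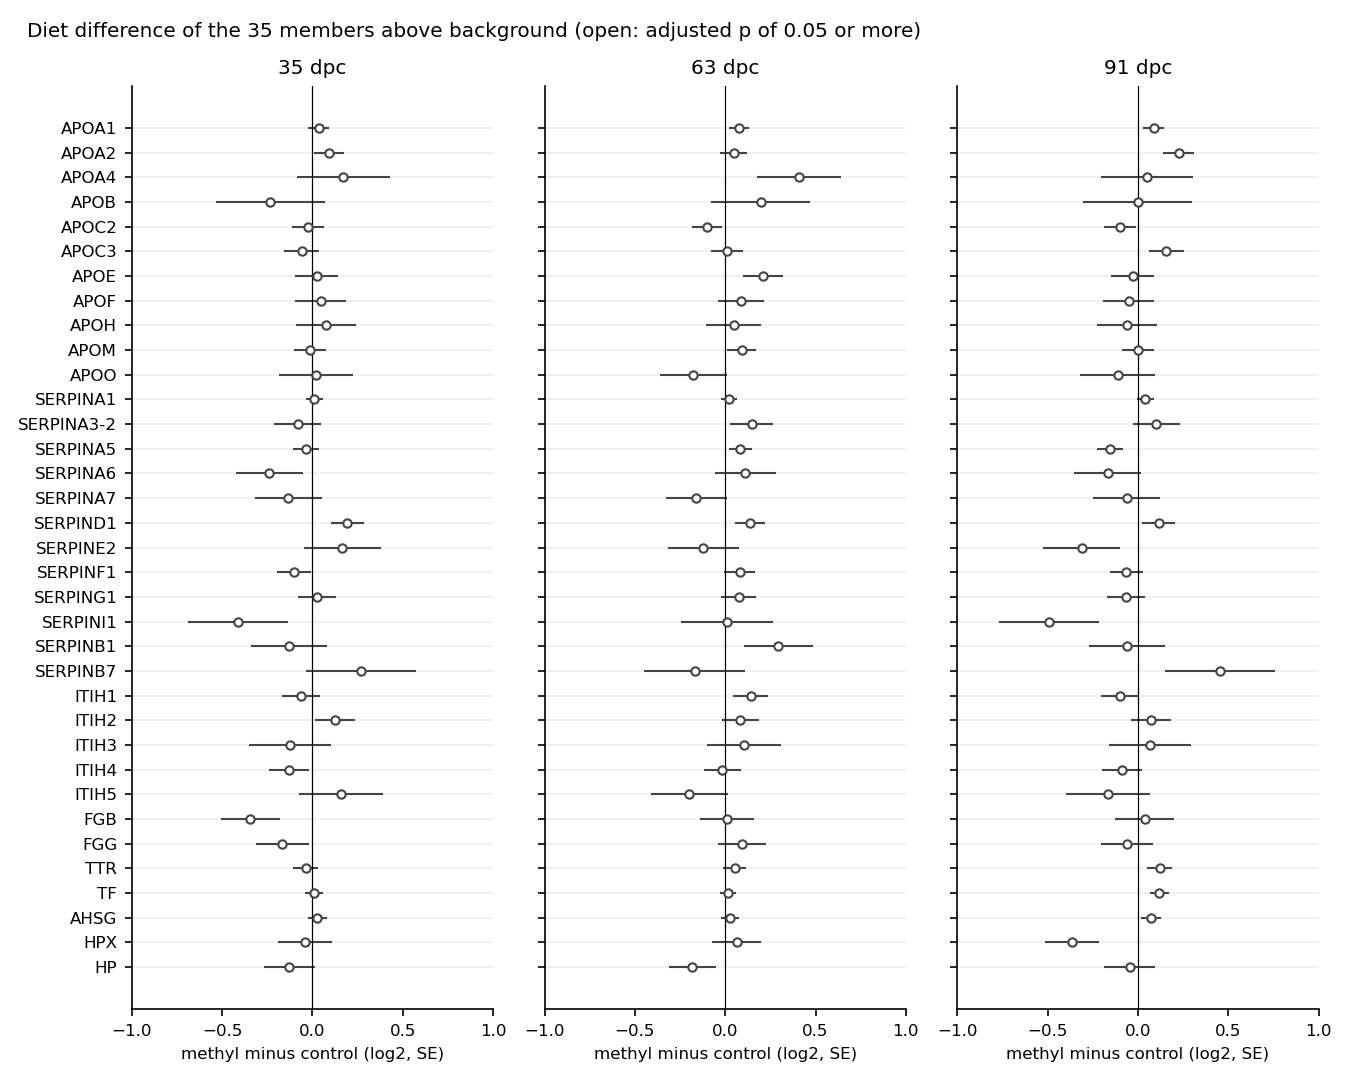
Methyl minus control difference in log2 signal with its standard error for the 35 members at 35, 63 and 91 dpc. All points are open because none passed an adjusted p of 0.05, and the differences run from -0.50 to 0.45 around 0.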

How the data were processed

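Liver RNA of 32 samples was measured on 1 porcine Affymetrix array each. The values are the deposited log2 signals of the authors' series table; GCOS 1.1.1 is named in the submitters' processing notes, and the normalization method is not given in the sources used here. They were used with no further normalization. Of 24123 probe sets, 124 controls were left out, and 10099 carried a single symbol in the platform annotation, 198 several and 13826 none. 1 probe set labelled with SERPINA11 under different gene IDs was left out.

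Probe sets above the array's 40th percentile on at least 5 arrays (15327) were fitted with limma 3.58.1 in R 4.3.3, with 1 mean per age and diet and an intensity trend. Age differences were averaged over diets and diets were compared within each age, with Benjamini-Hochberg adjustment over all 15327. The fit had 26 residual degrees of freedom. It was first tested on simulated data. No 2 arrays held identical values (0 pairs).

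Named were all members the text describes by role, the 10 largest called changes each way per age contrast, the 3 smallest p-values per diet contrast and up to 4 genes of each gene list by p. The members and the gene lists were chosen with earlier results of these data known. The split of the arrays at a spike-in gap of 1.2 was also known from such results. Alternatives were another filter, normalization, weighting, prior, covariate, probe set rule or threshold, and leaving out arrays. Gene order came from RefSeq; no genome sequence was used here, and the files name no genome build.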

Additional observations from a re-analysis of the deposited data

Results flagged for a closer look

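Of 210 sets of arrays of 1 gene, age and diet, 7 held an array far from the others of its set, in 5 genes. Chance gives about 10.5 at 1 in 20. SERPINA6 read 13.3 in control 35 dpc replicate 1, below the 13.5 to 13.6 of the other control arrays of that age. SERPINA6 also read 12.4 in control 63 dpc replicate 2, above 11.82 to 12.02 in the others. Methyl 35 dpc replicate 5 was low for APOE, at 12.9 against 13.3 to 13.5, and for SERPING1, at 12.8 against 13.2 to 13.3. APOA4 read 4.14 in control 63 dpc replicate 2, against 3.15 to 3.51 in the others. SERPINB7, close to background, read 3.80 in control 63 dpc replicate 4 (others 2.20 to 2.59) and 2.40 in methyl 63 dpc replicate 6 (others 2.58 to 2.59).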

How the results depend on the processing

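The counts of members called between 63 and 35 dpc stayed within 17 to 20 higher and 6 to 10 lower over 14 alternatives, and those between 91 and 63 dpc within 11 to 16 higher and 6 to 9 lower under 12 of 14. With the erythroid mean as a covariate, 91 against 63 dpc gave 1 member higher and 0 lower, with 156 and 59 of all 15327 probe sets, and with the narrow-gap arrays alone (fewer arrays) 8 higher and 5 lower. That covariate also turned AHSG to 0.0089, APOE to -0.055, SERPINB7 to -0.38 and SERPING1 to 0.015 for 91 against 63 dpc; the cause was not tested. The mean of all probe sets turned SERPIND1 to -0.019, because its 2 probe sets differ in sign. Leaving out 1 array gave 19 to 20 higher and 6 to 8 lower for 63 against 35 dpc, and 12 to 14 higher and 8 to 9 lower for 91 against 63 dpc. It gave 0 members for every diet comparison, as did each other alternative run. Quantile normalization put the median difference of all probe sets at -0.02 and -0.10, against 0.05 and -0.03 as deposited, and it added calls at 63 against 35 dpc for APOM (-0.18), SERPINA1 (-0.09) and SERPINE2 (-0.35). No paired analysis was possible because the labels give no replicate numbers, and those used here only follow the sample order. The unknown normalization, the unknown dams and the upper end of the signal scale limit what these arrays can show.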
